A study of Mus musculus with 4 samples.

Results

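Solute carriers are the membrane proteins that move amino acids, organic anions, metals, vitamins, nucleotides and ions across the plasma membrane and the membranes of organelles. They are grouped in numbered families by sequence, with the organic anion transporting polypeptides named Slco, and most work as cotransporters or exchangers that draw on ion gradients kept by the sodium pump or by proton pumps. In stellate cells of the liver, which store vitamin A and make collagen when they turn into myofibroblasts, they supply glutamine, glycine and proline for matrix synthesis and handle iron, hormones and lactate. The genes described here are the solute carriers with detectable signal in IMS/N cells, hepatic stellate cells of normal 129/Sv mice that SV40 infection made immortal. A gene was taken when a probe with a RefSeq mRNA accession was well above background on at least 1 of 4 arrays, leaving out the zinc and glucose families (Slc39a, Slc30a, Slc2a), Slc16a3 and Slc7a11. That gave 220 genes of 332 solute carrier genes with such a probe, or 66.3%, among 13268 genes built in the same way, and the brightest probe stood for the gene. The symbols Slc4a1ap, Slc7a6os, Slc9a3r1 and Slc9a3r2 also met the rule, although they name proteins beside transporters and not carriers. Roles were assigned by family number, so these 4 count in the role groups of their families.

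The cultures differed in the cytokine IL17A and in culture medium taken from adipose tissue-derived stem cells, or ADSC medium, and the study asked how that medium acts on cells given the cytokine. Group 1 was IMS/N cells with neither addition, called untreated. Group 2 received recombinant murine IL17A, group 3 received ADSC medium, and group 4 received both. The ADSC were grown from inguinal subcutaneous fat of male C57BL/6J mice aged 8 to 10 weeks. All cultures share the 1 immortalized line, each group is 1 Agilent 1-colour array, and the doses, the times and the medium given to the untreated cells are not given in the sources used here. The untreated and IL17A arrays were on slide 1 and both arrays with ADSC medium on slide 2, so slide and medium cannot be told apart, while IL17A was compared within a slide. With 1 array per group no difference has a replicate check. A gene is called higher or lower here when its quantile normalized processed signal differed by at least 2-fold, a log2 difference of 1, with the probe detected, that is well above background, on the brighter of the arrays compared. Where the dimmer array was not well above background, the lowest detected signal on that array took its place unless its own value was higher, and the fold is written as "at least".

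Signal was well above background for 205 of the 220 genes untreated, 197 under IL17A, 200 under ADSC medium and 204 under both. All 4 arrays detected 186 genes (84.5%), against 90.5% of all genes built the same way. Exactly 1 array detected 15 genes, of which 7 were seen only in untreated cells, 1 only with IL17A, 2 only with ADSC medium and 5 only with both. Such genes could enter the set only through the array on which they were bright. Just inside the threshold, Slc10a1 had a log2 level of 2.55 and Slc25a48 of 2.48 on the untreated array alone. Just outside, the highest value was 3.03 for Slc26a9, 2.69 for Slc38a8 and 2.65 for Slc7a2, none of them well above background. Probes spotted more than once differed between arrays with a technical SD of 0.261 in log2 at levels under 5, 0.138 at levels from 5 to 7, and 0.0857 for brighter probes, which holds no variation between cultures.

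Stellate markers were detected in part. Of 14, 8 were detected on all arrays, among them Acta2 at log2 levels of 13.40, 13.27, 13.45 and 13.24 in groups 1 to 4. Des, of the intermediate filament desmin, was dim (2.95, 2.66, 3.82 and 3.12) and detected on 3 arrays, Lrat and Hgf were detected on 1 array each, and Reln, Hand2 and Rgs5 on none. The summed linear level of the stellate list was 131995, 86648, 102099 and 74920 in the same order, lower in every treated culture. That sum was carried by Vim, Col1a1 and Col1a2, at log2 levels of 15.6, 15.0 and 14.8 untreated, and the list did not move as a whole. With IL17A those 3 were lower without and with medium, while Pdgfra was 0.64 and 0.66 higher and Col3a1 0.35 and 0.02 higher. With medium, Lhx2 was 0.47 and 0.80 higher without and with IL17A, and Des 0.87 and 0.38 higher. Pdgfrb differed by -1.25 and -0.71 with medium, Col3a1 by -1.22 and -1.54, Col1a2 by -0.77 and -0.59 and Pdgfra by -0.44 and -0.42. Of 9 stellate markers measured with medium alone, 0 were past 2-fold higher (background 2.57%) and 2 lower (background 2.0%). Of 11 measured with medium added to IL17A, 1 was higher (background 1.68%) and 1 lower (background 2.44%). Of 8 hepatocyte markers, 7 had a RefSeq probe, and only Tat was detected, at 3.43, 3.42, 3.32 and 2.85. Alb, Apoa1, Ttr, Cyp2e1, Hnf4a and Fgb were not well above background on any array. Detection was 2 of 6 for endothelial, 3 of 5 for cholangiocyte and 2 of 5 for adipocyte markers, with Epcam, Adipoq, Lep and Plin1 not detected. The summed cholangiocyte level was 1022, 564, 1134 and 607, lower on both IL17A arrays, with Krt19 differing by -1.39 and -2.21 on the log2 scale without and with medium. The summed adipocyte level was 137, 333, 125 and 171, carried by Fabp4, which differed by 1.32 and 0.51 with IL17A. The part of these lists in the results was not tested. In a bulk sample, fewer cells of a type and less RNA per cell cannot be told apart.

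Most solute carriers stayed within 2-fold between the cultures, although a larger share passed it than of all genes. In 189 of the 220 genes no comparison reached 2-fold, and the other 31 were 14.1% of the set, against 9.44% of all genes past 2-fold in any comparison. Of the 186 detected on all arrays 113 (60.8%) stayed within a log2 range of 0.5 over the 4 groups, against 67.3% of all genes. With IL17A and no medium, 9 of 210 measured genes were higher (background over all genes 2.24%) and 5 were lower (background 1.99%). With IL17A on top of ADSC medium, 12 of 209 were higher (background 1.43%) and 5 lower (background 1.87%). With ADSC medium against untreated cells, 6 of 211 were higher (background 2.57%) and 8 lower (background 2.0%). With ADSC medium added to IL17A, 9 of 209 were higher (background 1.68%) and 10 lower (background 2.44%). Scaling to the 75th percentile in place of quantile normalization changed the split to 6 higher and 7 lower for IL17A against untreated, and to 11 higher and 5 lower for the medium added to IL17A.

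A share of these counts came from dim probes. Of the 31 genes past 2-fold in any comparison, 20 had a mean log2 level below 5, where 32.8% of solute carriers and 28.5% of all genes were past it. At a mean level of 5 or more the shares were 6.92% and 4.64%. Under normexp background correction, which shrinks differences of dim probes, 15 of 64 differences of the named genes stayed past 2-fold, among them those of Slc11a1, Slc1a6, Slco2b1, Slco4a1, Slc24a3, Slc16a11 and Slc1a3 in at least 1 comparison. Among the 186 genes detected on all arrays, 4 were higher and 1 lower with IL17A alone (background 1.54% and 1.29%), 5 and 2 with IL17A in medium (0.766% and 1.14%), 3 and 3 with medium alone (1.67% and 1.12%), and 3 and 6 with medium added to IL17A (1.14% and 1.73%). The median log2 difference of genes measured on both arrays was -0.037 for IL17A alone, against 0.0057 for all genes, and -0.044 within the medium, against -0.044. For the medium it was 0.026 without IL17A, against 0.067, and 0.034 with IL17A, against 0.016. The median of the solute carriers minus that of all genes thus ran from -0.043 to 0.018 over the 4 comparisons.

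**Figure D1:**
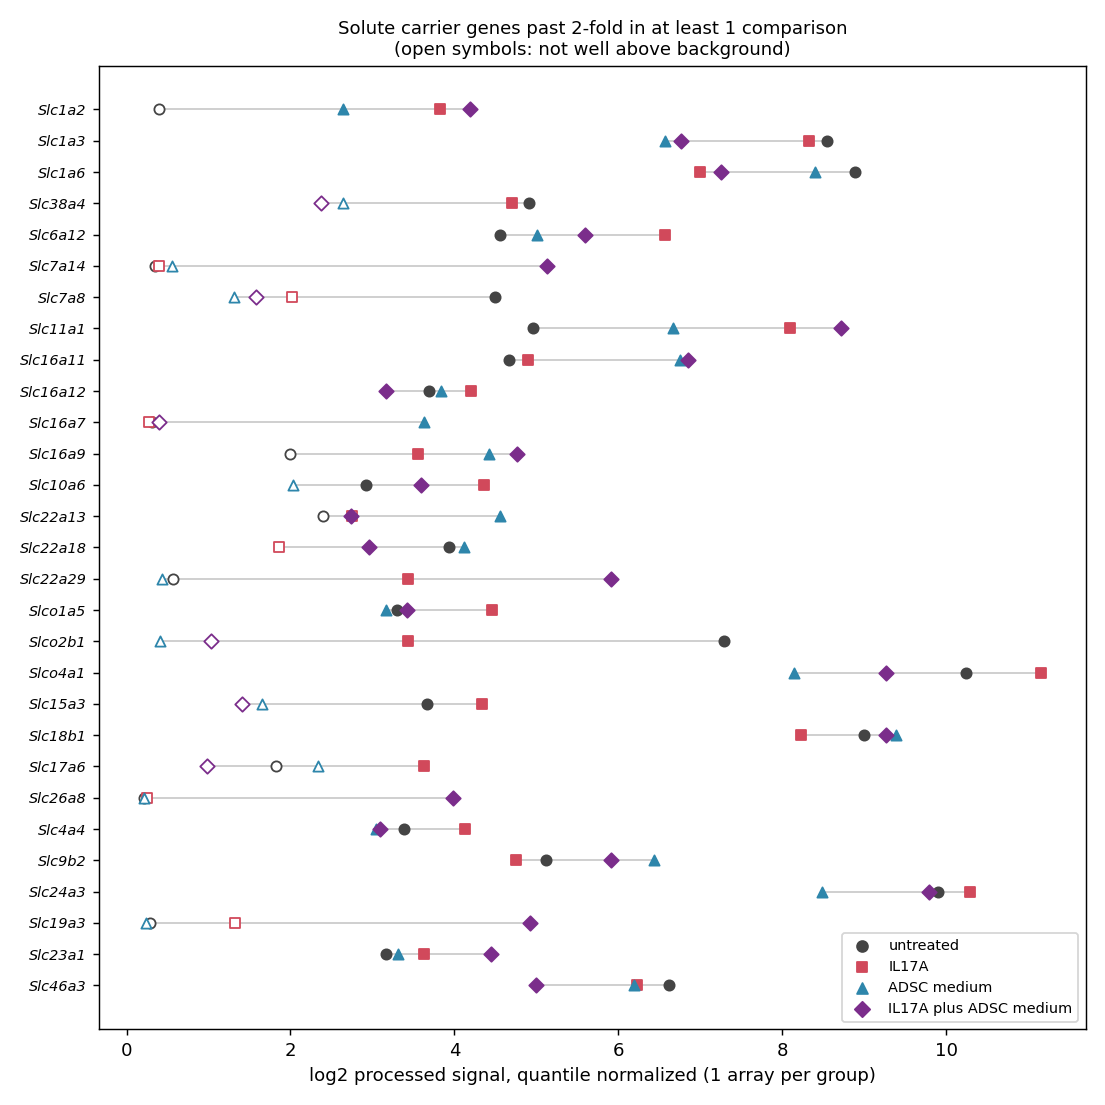
Log2 processed signal, quantile normalized (horizontal axis), of solute carrier genes past 2-fold in at least 1 comparison, with 1 symbol per array and open symbols where the probe was not well above background. Slc11a1 has its IL17A and combined arrays on the right, while Slco2b1, Slco4a1 and Slc1a3 have the arrays with ADSC medium on the left.

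Start-site windows of RefSeq (GRCm38.p6), from 250 bases before to 50 after a gene's start, were on hand for 166 of the 220 genes. They were searched on both strands for GGGNNTTTCC (an NF-kB motif), TTGCNNAA (C/EBP) and TGANTCA (AP-1), the factors best known downstream of the IL-17 receptor. The 4 windows printed are those of genes with large differences in either direction: Slc6a12, Slc1a2 and Slc11a1, higher with IL17A, and Slco2b1, lower with either treatment. Capitals mark the matched letters, and each window reads 5′ to 3′ on the gene's strand, at chr6:121342324-121342623 (+) for Slc6a12, chr2:102706188-102706487 (+) for Slc1a2, chr1:74374953-74375252 (+) for Slc11a1 and chr7:99711291-99711590 (-) for Slco2b1.
Slc6a12: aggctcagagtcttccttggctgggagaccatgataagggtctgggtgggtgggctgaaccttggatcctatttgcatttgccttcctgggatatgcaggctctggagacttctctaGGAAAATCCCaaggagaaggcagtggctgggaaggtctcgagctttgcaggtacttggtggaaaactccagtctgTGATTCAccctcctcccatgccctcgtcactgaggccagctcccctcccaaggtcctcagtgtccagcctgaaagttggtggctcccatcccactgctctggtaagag
Slc1a2: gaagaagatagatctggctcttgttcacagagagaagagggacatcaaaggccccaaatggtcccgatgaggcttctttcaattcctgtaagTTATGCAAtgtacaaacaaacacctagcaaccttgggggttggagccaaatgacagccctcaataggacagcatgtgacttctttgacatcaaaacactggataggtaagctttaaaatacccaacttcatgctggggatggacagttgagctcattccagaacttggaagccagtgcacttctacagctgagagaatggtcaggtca
Slco2b1: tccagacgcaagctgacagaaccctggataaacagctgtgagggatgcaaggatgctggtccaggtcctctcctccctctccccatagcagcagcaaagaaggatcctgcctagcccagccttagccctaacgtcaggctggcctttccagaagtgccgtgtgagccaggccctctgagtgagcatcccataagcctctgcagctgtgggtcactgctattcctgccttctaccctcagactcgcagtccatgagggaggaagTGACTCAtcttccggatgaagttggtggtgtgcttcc
Slc11a1: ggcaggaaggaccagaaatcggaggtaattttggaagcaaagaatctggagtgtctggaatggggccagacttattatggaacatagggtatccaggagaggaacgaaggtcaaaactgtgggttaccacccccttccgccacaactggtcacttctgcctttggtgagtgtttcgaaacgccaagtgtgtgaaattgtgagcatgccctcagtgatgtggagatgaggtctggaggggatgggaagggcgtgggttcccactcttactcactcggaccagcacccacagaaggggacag

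The Slc6a12 window, the first of 5 listed for the gene, matched the NF-kB letters at bases 118 to 127 and the AP-1 letters at bases 193 to 199, neither overlapping the other. The Slc1a2 window matched C/EBP at bases 93 to 100, the first of 3 Slco2b1 windows matched AP-1 at bases 264 to 270, and the Slc11a1 window held none of the 3 motifs. Over 32851 windows of all genes, 1.63% held the NF-kB letters, 10.8% C/EBP and 7.81% AP-1. Over 233 windows of the solute carriers the shares were 0.858%, 9.44% and 6.87%. Of 21 windows of 13 genes higher with IL17A in either setting, 1 held the NF-kB letters, which is the Slc6a12 window printed, 5 C/EBP and 2 AP-1. N in a pattern allows any base, and the middle base of the AP-1 match was T in Slc6a12 and C in Slco2b1. A match describes letters in a window and not a bound site.

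Metal and heme transporters held the gene that differed most with IL17A among those detected on all arrays. Slc11a1, a proton-coupled transporter of divalent metals in phagosome and lysosome membranes, known mainly from phagocytes, had log2 levels of 4.96 untreated, 8.09 under IL17A, 6.67 under ADSC medium and 8.71 with both. Every treated array was above the untreated one, and both IL17A arrays were above both arrays without it. IL17A was associated with an 8.81-fold higher signal without medium and 4.13-fold with it, and the medium with 3.27-fold without IL17A and 1.53-fold with it. Under normexp background correction the medium difference without IL17A was 0.90 on the log2 scale, short of 2-fold. The probe lies at chr1:74432161-74432220 (mm9), and no annotation of that build was used here.

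Of 7 macrophage markers, Ptprc, Adgre1, Clec4f and Lyz2 were not well above background on any array. The others, Cd68, Csf1r and Cd14, were detected on all 4. The summed level of the list was 534 untreated, 1329 with IL17A, 517 with medium and 836 with both, and it was carried by Cd14, at log2 levels of 8.87, 10.28, 8.71 and 9.51. Cd14 and Csf1r were each 1.41 higher on the log2 scale with IL17A than in untreated cells, and 0.80 and 0.94 higher within the medium. Csf1r was dim, at 3.15, 4.56, 3.35 and 4.29 in groups 1 to 4. Cd68 differed by only 0.09 with IL17A alone and -0.04 within the medium, and by 0.64 and 0.50 with the medium.

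The remaining 8 metal and heme transporters did not reach 2-fold. Slc11a2, which brings ferrous iron into the cell and out of endosomes, was at 9.50, 10.32, 9.70 and 10.17, with both IL17A arrays above both others. Its 2 other probes, both dimmer, gave 1.35 and 1.16 with IL17A alone, past 2-fold, and 1.06 and 0.67 within the medium. Slc40a1, the iron exporter ferroportin, was at 5.66, 5.15, 5.21 and 4.69, highest untreated and lowest with both. Slc41a3, of a magnesium transporter family, was at 8.31, 7.61, 8.48 and 8.02, lower on each IL17A array than on its partner without IL17A.

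Among 36 genes of the amino acid transporter families, 34 were measured with IL17A alone. Of these, 2 were higher (background 2.24%) and 2 lower (background 1.99%). With medium alone, none of 34 measured was higher (background 2.57%) and 3 were lower (background 2.0%). The glutamate transporters of family 1, which take up glutamate with sodium, did not share a layout. Slc1a6 was at 8.88 untreated, 7.0 with IL17A, 8.40 with medium and 7.25 with both, so both IL17A arrays were the low ones. It was 3.69-fold lower with IL17A alone and 2.22-fold lower within the medium (log2 -0.94 under normexp, short of 2-fold). Slc1a3 was at 8.54, 8.32, 6.56 and 6.76, low on both arrays with medium whether or not IL17A was present. The medium difference was 3.94-fold lower without IL17A and 2.95-fold lower with it, and IL17A made differences of only -0.22 and 0.20 on the log2 scale. Slc1a2 was not well above background untreated (0.39), and read 3.82 with IL17A, 2.63 with medium and 4.19 with both. It was at least 2.78-fold higher with IL17A alone and 2.93-fold higher within the medium, at levels where the technical SD is largest, and normexp left log2 differences of 0.16 and 0.27.

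Slc6a12, the betaine and GABA transporter, was at 4.55 untreated, 6.57 with IL17A, 5.01 with medium and 5.59 with both. The IL17A array stood above the other 3, at 4.04-fold over untreated, and the difference within the medium was 1.49-fold. Adding medium to IL17A gave a 1.97-fold lower signal, just under the threshold, and under normexp the IL17A difference was 0.89 on the log2 scale. Slc38a4, a carrier of neutral and cationic amino acids, was at 4.91 and 4.71 without medium and not well above background with it (2.64 and 2.37). That is at least 4.81-fold lower without IL17A and at least 5.06-fold lower with it, but its second probe, dimmer and detected on 2 arrays, differed by 0.48 and -0.76. Slc7a8, a light chain of a neutral amino acid exchanger, was detected in untreated cells only (4.49). Slc7a14, a lysosomal member of family 7, was detected with both treatments only, at 5.13, at least 6.30-fold over ADSC medium and at least 5.23-fold over IL17A. Under normexp those differences were 0.80 and 0.72 on the log2 scale, short of 2-fold, and those of Slc38a4 -0.51 and -0.37.

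The broad carriers of amino acid supply stayed inside 2-fold. Slc3a2, the heavy chain shared by the CD98 exchangers, was at 13.35, 13.31, 13.49 and 13.52. Slc7a5, its leucine-carrying light chain, was at 9.98, 9.60, 10.14 and 9.99, with the IL17A array lowest. The glutamine carriers Slc1a5, at 11.16, 11.13, 11.37 and 11.43, and Slc38a2, at 13.15, 13.29, 12.81 and 13.08, differed by less than 0.5. Slc6a6, the taurine transporter, was at 12.70, 12.43, 12.27 and 12.07, highest untreated and lowest with both. Among 10 genes listed for the amino acid response, which many of these carriers follow, Atf4 read 12.05, 12.20, 11.96 and 12.02. The list is broad and takes in Mtor, Rptor and Ppargc1a. Only Ppargc1a passed 2-fold, at 5.56 and 4.95 without medium, 3.92 with medium and 2.24, not well above background, with both. Whether Ppargc1a followed the amino acid response here was not tested.

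Organic anion, cation and bile acid transporters numbered 24, and 8 of them passed 2-fold in at least 1 comparison, against 9.44% of all genes. Their median log2 level was only 4.41, and 28.5% of all genes at a mean level below 5 passed 2-fold. With IL17A alone 3 of 23 measured were higher (background 2.24%) and 3 lower (background 1.99%). With medium alone 1 of 23 was higher (background 2.57%) and 3 lower (background 2.0%). Slco2b1, an uptake carrier of sulfated steroids and many drugs, was at 7.29 untreated, 3.43 with IL17A, and not well above background with medium (0.40) or with both (1.03). The untreated array was thus far above the other 3. IL17A was associated with a 14.5-fold lower signal, medium with at least a 28.1-fold lower one, and medium added to IL17A with at least a 2.09-fold lower one, which 75th percentile scaling put at -0.76 on the log2 scale. Normexp gave much smaller differences, -1.68, -1.96 and -0.21 on the log2 scale in the same order. The probe lies at chr7:106807008-106807067 (mm9).

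Slco4a1, a carrier of thyroid hormone and other organic anions, was at 10.24 untreated, 11.15 with IL17A, 8.14 with medium and 9.26 with both. Both arrays with medium were below both without it, and within each slide the IL17A array was the higher. The medium differences were 4.28-fold and 3.69-fold lower without and with IL17A, and the IL17A differences 1.88-fold and 2.18-fold higher without and with medium. Slco3a1, of the same superfamily, had the same order in a smaller range, at 12.06, 12.52, 11.47 and 11.95. Slco2a1, the prostaglandin transporter, was at 11.52, 11.08, 11.72 and 11.24, lower on both IL17A arrays. Slco1a5 reached 2-fold only in single comparisons, at 3.30, 4.46, 3.16 and 3.42, and its second probe gave 0.28 with IL17A.

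Dimmer members of the group accounted for the other differences. Slc10a6, a carrier of sulfated steroids, was at 2.92 untreated, 4.36 with IL17A, 2.03 with medium (not well above background) and 3.59 with both, and so higher on each IL17A array than on its partner, by 2.73-fold and at least 2.17-fold. Slc22a29, of the organic anion transporter family, was detected only with IL17A, at 3.43 alone and 5.91 with medium. It was at least 2.12-fold and at least 10.8-fold higher in the respective comparisons, and the former was 0.80 on the log2 scale under 75th percentile scaling. Under normexp the differences were 0.32 and 0.24 for Slc10a6 and 0.20 and 0.98 for Slc22a29, short of 2-fold. Slc22a18 was lower with IL17A in both settings (3.94, 1.86, 4.11 and 2.96), but its second probe, detected on all arrays, differed by 0.03 and -0.13.

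Monocarboxylate transporters, which carry lactate, pyruvate, ketone bodies and, in some members, hormones, showed 5 of 10 genes past 2-fold in some comparison, against 9.44% of all genes. Their median log2 level was 5.62. Of all genes, 28.5% passed 2-fold below a mean level of 5 and 4.64% at 5 or more. Slc16a11 was at 4.67 untreated, 4.89 with IL17A, 6.75 with medium and 6.84 with both, high on both arrays with medium by 4.24-fold and 3.87-fold and within 1.17-fold for IL17A. Slc16a9 was not well above background untreated (2.0) and read 3.55, 4.42 and 4.76 with IL17A, medium and both, at least 4.22-fold higher with medium alone (0.40 on the log2 scale under normexp). Slc16a7, a high-affinity pyruvate and lactate carrier, was detected only with medium alone, at 3.63. Slc16a1, the main lactate carrier MCT1, was flat on its brightest probe at 11.50, 11.52, 11.37 and 11.32. Another probe was flat too (11.10, 11.09, 11.01 and 11.09), while its dimmest was highest untreated (6.99, 6.44, 6.55 and 6.56). The chaperone Bsg, which MCT1 needs to reach the membrane, was flat as well, at 12.44, 12.69, 12.67 and 12.64.

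Ion exchangers differed in single genes. Slc24a3, a potassium-dependent sodium-calcium exchanger, was at 9.89 untreated, 10.29 with IL17A, 8.49 with medium and 9.78 with both. Only the array with medium alone was low, 2.65-fold under untreated and 2.46-fold under the combined array. Slc9b2, a sodium-proton antiporter, was at 5.12, 4.75, 6.43 and 5.91, higher on both arrays with medium by 2.49-fold and 2.23-fold, while normexp gave 0.64 and 0.50 on the log2 scale. Slc26a8 was detected only with both treatments, at 3.98. Slc9a7, an exchanger of the Golgi and endosomes, was at 7.31, 6.45, 7.23 and 6.59, lower on both IL17A arrays. None of 7 cation-chloride cotransporters passed 2-fold, with Slc12a2, the sodium-potassium-chloride cotransporter of cell volume control, at 8.97, 9.46, 9.04 and 9.28.

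Of the genes that carriers depend on, Atp1b1, a beta subunit of the sodium pump that keeps their ion gradients, was at 9.82, 8.85, 8.74 and 7.79, with each treatment lower and the combined array lowest. Its medium differences were -1.08 and -1.07 on the log2 scale and its IL17A differences -0.97 and -0.95. Sgk1, a kinase that raises the surface activity of several carriers, was at 11.38, 12.04, 11.92 and 12.57, highest with both.

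Vitamin and choline transporters had 3 of 12 genes past 2-fold, against 9.44% of all genes, all in comparisons of the combined array. Slc46a3, a lysosomal carrier, was at 6.62, 6.22, 6.18 and 5.0. The combined array was the low one, 2.33-fold under IL17A and 2.27-fold under medium, with -0.56 and -0.54 on the log2 scale under normexp. Slc19a3, a thiamine transporter, entered the set through the combined array only (4.92), at least 5.45-fold over medium and at least 4.52-fold over IL17A, with 0.60 and 0.62 on the log2 scale under normexp, short of 2-fold. Slc52a3, a riboflavin transporter, was at 5.48, 4.51, 5.40 and 4.51, lower on both IL17A arrays with log2 differences of -0.97 and -0.90. Among the 3 nucleoside transporters, Slc29a1, the equilibrative adenosine carrier ENT1, was at 11.48 and 11.20 without medium and 12.16 and 11.95 with it.

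Mitochondrial carriers and nucleotide sugar transporters stayed inside 2-fold. None of 40 mitochondrial carriers and none of 22 nucleotide sugar and related transporters of the Golgi and endoplasmic reticulum passed it in any of the 4 comparisons, where 9.44% of all genes did, and 4.64% of those at a mean level of 5 or more. Both groups were bright, with median log2 levels of 9.06 and 9.18, and at the 4.64% share few of their genes would pass. Mitochondrial carriers detected on all arrays had a median log2 range of 0.337, against 0.395 for all 186 such solute carriers, and the nucleotide sugar group 0.283. The ADP/ATP carriers Slc25a4, at 16.23, 16.13, 16.13 and 16.15, and Slc25a5, at 15.38, 15.38, 15.40 and 15.43, differed by no more than 0.1. Slc25a1, the citrate carrier that feeds fatty acid synthesis, was at 11.29 and 11.25 without medium and 10.78 and 10.69 with it. Slc25a22, a glutamate carrier, had the opposite layout, at 7.76 and 7.80 without medium and 8.33 and 8.45 with it.

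**Figure D2:**
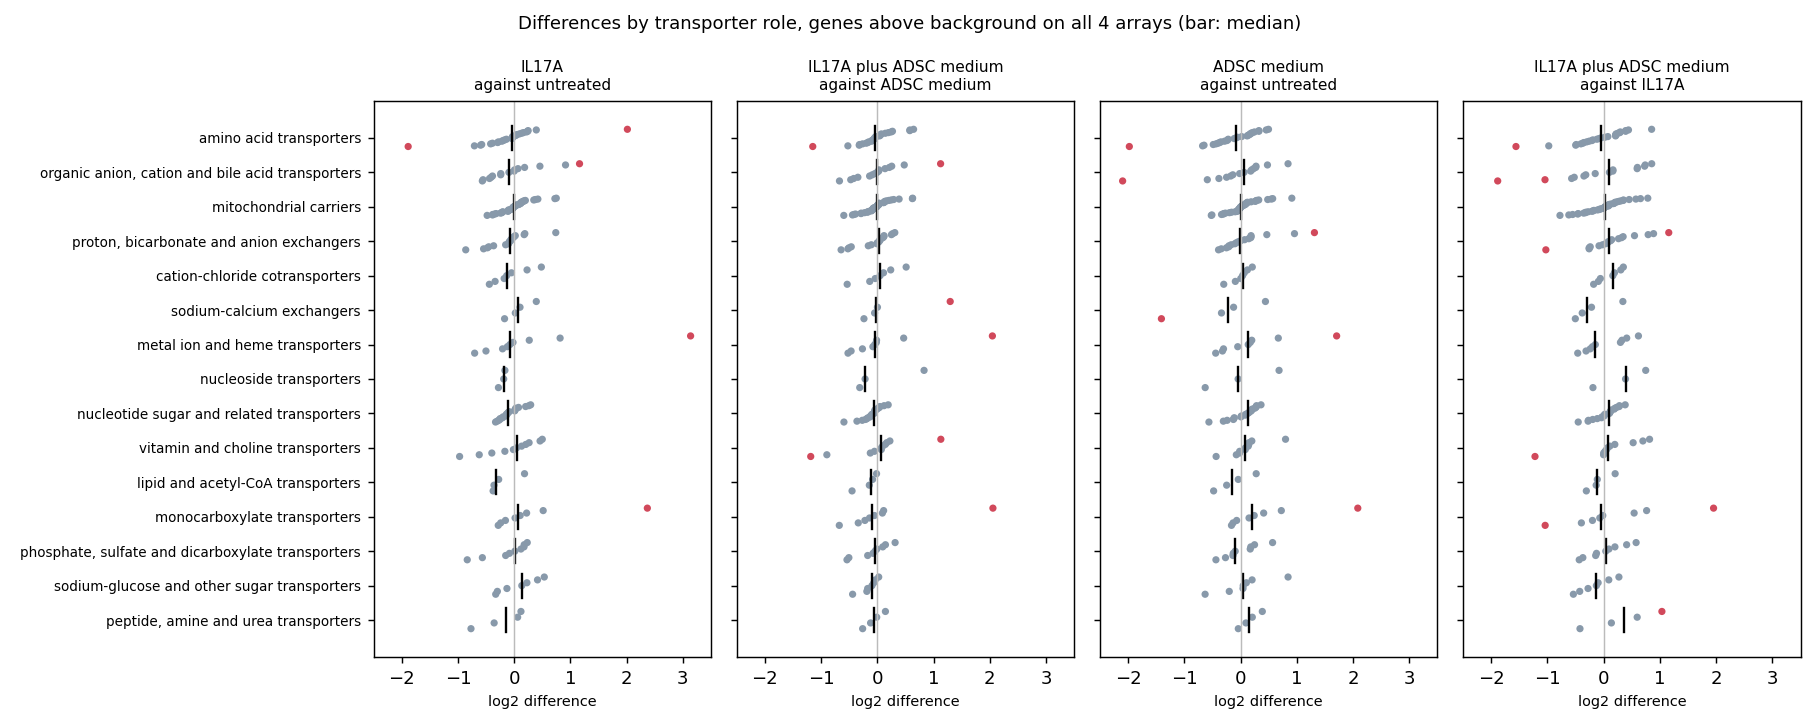
Log2 differences (horizontal axis) of solute carrier genes detected on all 4 arrays, by role (vertical axis) and comparison (panels), with 1 point per gene, red at 2-fold or more, and a bar at the median. The 39 mitochondrial carriers and 21 nucleotide sugar transporters shown have no red point in any panel.

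Each factor was measured in 2 comparisons that share no array. IL17A was compared without and with medium, and 5 genes were higher in both settings, among them Slc10a6, Slc11a1, Slc1a2 and Slc22a29, and 2 lower in both (Slc1a6 and Slc22a18). For the medium 3 were higher in both settings (Slc16a11, Slc16a9 and Slc9b2) and 5 lower in both (Slc15a3, Slc1a3, Slc38a4, Slco2b1 and Slco4a1). Slc15a3, a lysosomal carrier of histidine and peptides, was at 3.67 and 4.33 without medium and not well above background with it (1.65 and 1.41). Over the 186 genes detected on all arrays the 2 IL17A differences had Pearson's r of 0.667 and Spearman's rho of 0.448, and all genes gave 0.661 and 0.463. The 2 medium differences gave 0.674 and 0.584, against 0.673 and 0.652. These are descriptions across genes, which share the arrays and are not independent.

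**Figure D3:**
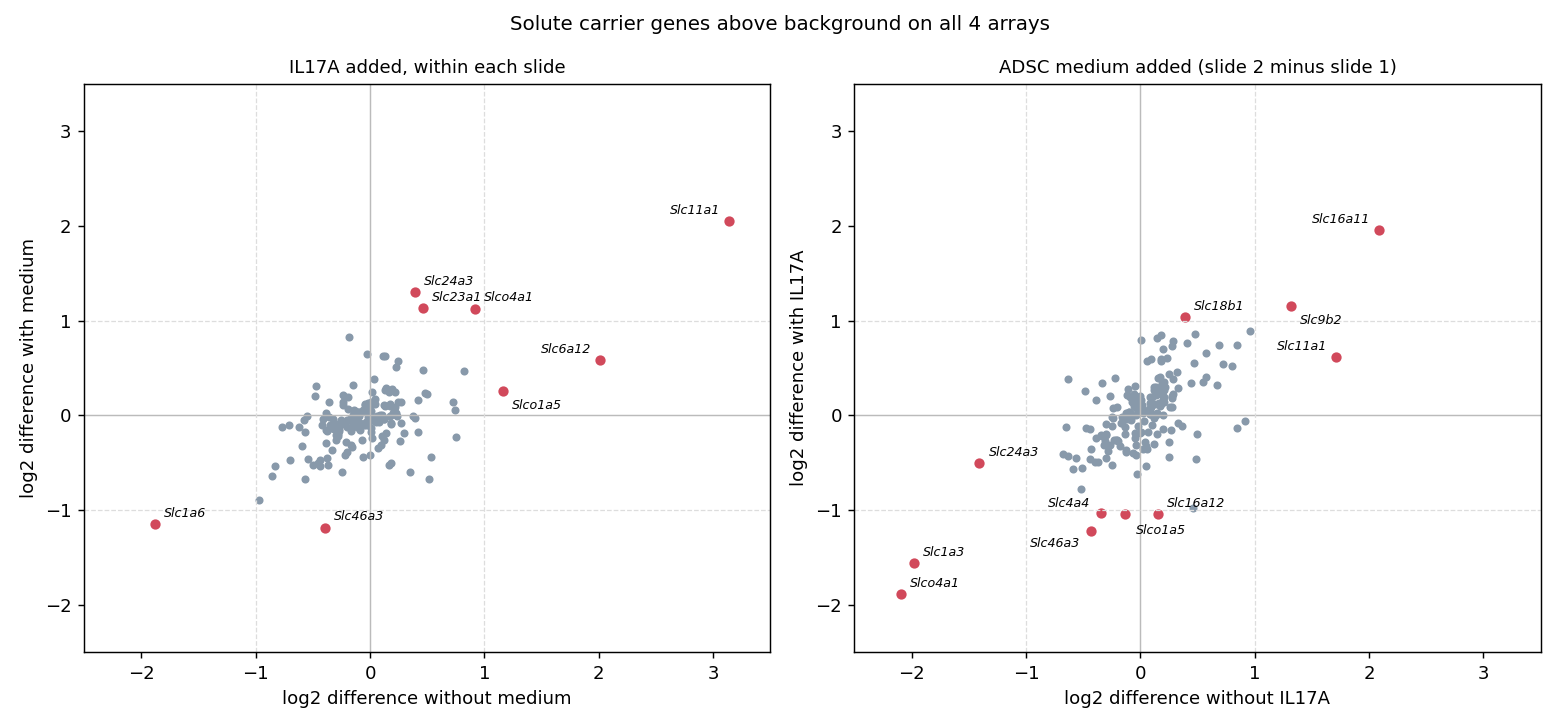
Log2 difference of solute carrier genes detected on all 4 arrays, in the first setting (horizontal axis) against the second (vertical axis), for IL17A (left) and ADSC medium (right), with dashed lines at 2-fold and genes past it in red. Slc11a1 lies far out in the upper right for IL17A and Slc1a6 in the lower left, while Slc16a11 and Slc9b2 lie in the upper right for the medium and Slco4a1 and Slc1a3 in the lower left.

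A fit of all 4 arrays with IL17A and medium as additive terms used the departure from additivity as its spread, on 1 residual degree of freedom per gene, with variances moderated by limma over all genes with a trend on level. Slc35f3, whose untreated spot was an outlier, could not be fitted. Among 204 solute carriers detected on at least 2 arrays, the fit called 11 higher (background 4.29%) and 18 lower (background 7.14%) with IL17A, and 32 higher (background 15.7%) and 24 lower (background 11.2%) with medium, at an adjusted p under 0.05. Without the trend it called 0 genes for either factor, with 42 and 64 at an unadjusted p under 0.05 and smallest adjusted p-values of 0.148 and 0.107. The calls thus rest on the trend, and the medium term also carries the slide.

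For Slco4a1 the fit gave 1.02 ± 0.08 (SE) for IL17A (adjusted p = 0.000123) and -1.99 ± 0.08 for medium (adjusted p = 4.52e-06) on the log2 scale. Those adjusted p-values reached 0.164 and 0.107 in other settings of the fit. Slc11a1 had an IL17A effect of 2.59 ± 0.22 (adjusted p = 0.000154, from 0.000116 to 0.170 over the 4 settings) and Slc1a6 of -1.52 ± 0.16 (0.000439 to 0.186). Medium effects were 2.02 ± 0.17 for Slc16a11 (0.000132 to 0.107) and -1.77 ± 0.13 for Slc1a3 (6.58e-05 to 0.107).

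Several genes under 2-fold were called by this fit with the trend. With IL17A these included Slco3a1 at 0.47 ± 0.06, Slco2a1 at -0.46 ± 0.06, Slc11a2 at 0.64 ± 0.09 and Slc9a7 at -0.75 ± 0.13. With medium they included Slc29a1 at 0.72 ± 0.06, Slco3a1 at -0.58 ± 0.06, Slc25a1 at -0.53 ± 0.06 and Slc25a22 at 0.61 ± 0.10. Each kept its sign under 75th percentile scaling and normexp correction. The broad amino acid carriers were called for the medium too, with Slc3a2 at 0.17 ± 0.05, Slc7a5 at 0.27 ± 0.08, Slc1a5 at 0.25 ± 0.06, Slc38a2 at -0.28 ± 0.06 and Slc6a6 at -0.39 ± 0.06. Slc6a6 was also called for IL17A, at -0.24 ± 0.06. None of these calls held without the trend, and the medium effects also carry the slide.

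**Figure D4:**
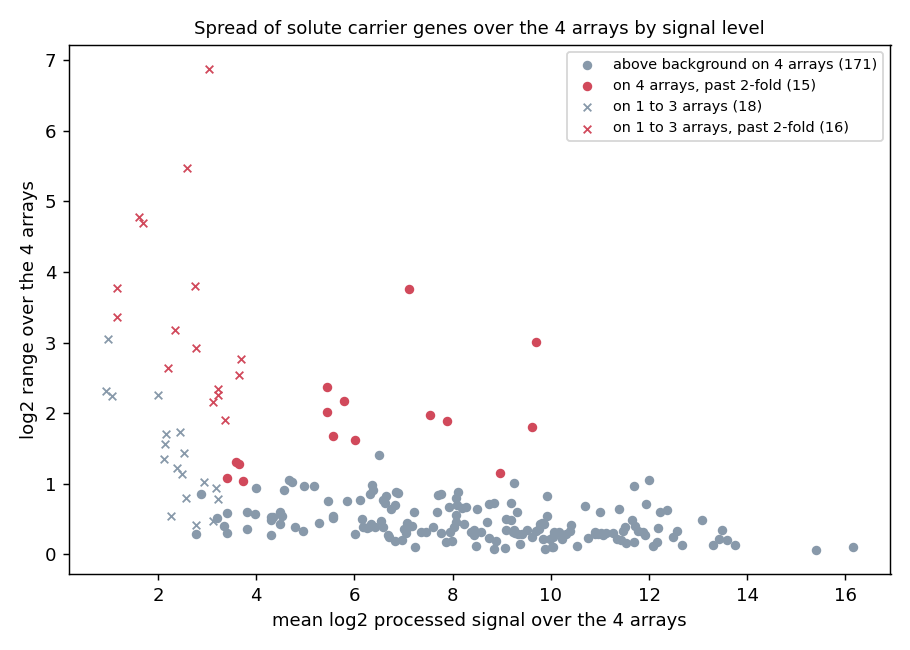
Log2 range over the 4 arrays (vertical axis) against mean log2 processed signal (horizontal axis) for the solute carrier genes, with crosses for genes detected on 1 to 3 arrays and red for the 31 past 2-fold in any comparison. Of the red symbols 20 lie below a mean level of 5, and the 15 red circles, detected on all arrays, include Slc11a1 and Slco4a1.

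The authors' deposited lists of probes hold some of these genes, by a threshold not given in the sources used here. Of 861 probes in the authors' deposited list of genes higher with IL17A than untreated, 11 represent solute carriers of the set, among them Slc10a6, Slc11a1, Slc11a2, Slc16a9, Slc17a6, Slc1a2, Slc25a42, Slc6a12, Slco1a5 and Slco4a1. Of 1193 probes in the authors' deposited list of genes higher with IL17A than with medium added, 15 do, among them Slc6a12, Slc46a3, Slc1a3 and Slco4a1. The lists were made from these same arrays and are no independent evidence of direction.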

How the data were processed

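Total RNA of 4 cultures, 1 per group, was measured on 1-colour Agilent arrays. Each deposited intensity is a linear processed signal from which Feature Extraction 12.1.1.1 had removed background within the array, per the file headers, which place probes on mm9. Deposited score columns hold 0 or 1 and mark spots that were detected, saturated or outliers, per the file headers. The authors applied quantile normalization per the series design text, and the submitters' processing notes name R 3.5.1. The members, roles, lists and comparisons were chosen with earlier results of these data known.

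Spots of control probes were dropped, as were 126, 91, 107 and 100 outliers on the 4 arrays, the log2 signals of all 4 arrays were quantile normalized, and spots of a probe were averaged. No spot was saturated. Accessions of 219 of the 220 genes matched the GRCm38.p6 table. Slc35f3 has no untreated value, because its spot was an outlier. The number of arrays limits the precision. Genes were named from the largest differences in each comparison and role, calls in both settings, the additive fit and the authors' lists. Some genes that count in the totals are not reported here by name. The size rule is no test. The additive model was fitted in limma 3.58.1 (R 4.3.3) by lmFit with trended eBayes and Benjamini-Hochberg adjustment over 12576 genes, and was tested on simulated data. Other steps used Python 3.11.15, pandas 2.3.3 and NumPy 2.4.6. Alternatives were 75th percentile scaling, normexp with an offset of 50, other filters, the mean of probes and eBayes without a trend.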

Additional observations from a re-analysis of the deposited data

How the results depend on the processing

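No paired analysis was possible because each group had 1 sample, and leaving out an array would leave the additive fit with 0 residual degrees of freedom. Counts are given as higher and lower for IL17A against untreated, IL17A in medium, medium against untreated and medium added to IL17A, in that order, where the main counts were 9 and 5, 12 and 5, 6 and 8, and 9 and 10. Normexp with an offset of 50, which by construction shrinks differences of dim probes, left 2 and 2, 3 and 0, 1 and 4, and 1 and 2. Requiring all 4 arrays above background left 4 and 1, 5 and 2, 3 and 3, and 3 and 6. No filter gave 19 and 14, 20 and 14, 20 and 21, and 18 and 19. Under 75th percentile scaling 5 genes were lower with medium added to IL17A, and its other counts and all counts from the mean of probes stayed within 1.5 times. In the additive fit, normexp gave 11 lower with IL17A, and eBayes without a trend gave 0 in each direction of both factors. Of 64 named differences, 55 stayed past 2-fold under 75th percentile scaling, 58 with the mean of probes and 15 under normexp, and none reversed. The mean of probes changes only genes with another probe, and few called genes had another measured one (3, 1, 1 and 4 in the same order). All other probes had the same direction for 2, 1, 0 and 4 of them, and passed 2-fold for 0, 0, 0 and 1. The median for IL17A against untreated was 0.0077 with no filter, against -0.037. For the other changes the cause was not tested. Signal over background limits what can be said of the genes below a log2 level of 5.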
